A study of Drosophila melanogaster with 4 samples.

Results

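Oxidative phosphorylation is carried out by complexes I to V of the inner mitochondrial membrane, whose subunits are encoded partly in the nucleus. In Drosophila melanogaster many nuclear subunit genes have a duplicated copy, and such copies are known for expression mainly in the testis, where sperm build a very large mitochondrial derivative. The genes described here are those with a symbol that begins with ND- (complex I), Sdh and a letter from A to D (complex II), UQCR- or Cyt-c (complex III), COX and a digit (complex IV) or ATPsyn (complex V). The symbols chose 74 genes of the 11981 that had a probe set with a single gene symbol, and the rule uses no measured value. Of these, 52 are standard subunits and 22 are paralogues, whose symbol is a subunit name followed by L, in 4 cases with a digit after the L. For COX6AL, COX6AL2, COX6CL and ATPsynepsilonL the standard gene has another symbol (levy, cype or sun), and these were paired by hand. ND-MNLL ends in L but is a standard subunit. The split into standard subunits was 27 for complex I, 3 for complex II, 5 for complex III, 7 for complex IV and 10 for complex V, and the paralogues numbered 5, 3, 3, 7 and 4 in the same order of complexes.

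RNA came from heads of male flies that had been fasted for 24 h, and each of 4 groups was measured on 1 Affymetrix array. The groups are a TORC mutant, its WT control, a TORC neuronal rescue (spelled "resuce" in the labels) and a rescue control. TORC is the product of Crtc, a cofactor that works with CREB in transcription. The labels give no allele, driver, background genotype, age or number of flies for any group, and the deposited values are MAS5 signals scaled to a common mean. With 1 array a group there is no replicate error, so ratios are differences between single arrays, no p-value is given, and a gene is called when its signals differ 2-fold or more. Signals below 14 were raised to 14, here called the floor, and a fold that involves the floor is a lower bound, written "at least". The targeted gene Crtc had a signal of 3.8 in mutant and 203.1 in WT control heads, and 37.4 in neuronal rescue and 6.7 in rescue control heads, so it was below the floor in the rescue control as well as in the mutant.

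Several features of the arrays bear on all values below. Signals exceeded the floor at 53.3% of probe sets in mutant and 63.0% in WT control heads, and 62.9% in neuronal rescue and 54.6% in rescue control heads. All 9 measured photoreceptor genes, 12 neuronal genes and 6 glial genes were above the floor on each array, as the head label calls for. None of 12 measured testis marker genes, among them the sperm tubulin gene betaTub85D and the sperm protein gene Mst87F, was above the floor in the mutant, while 12 passed it on the WT control array, 12 on the neuronal rescue array and 4 on the rescue control array. Their summed signal was 70.5 in mutant and 5994.8 in WT control heads, and 11414.5 in neuronal rescue and 110.3 in rescue control heads. The sums over 13 markers of accessory gland or ejaculatory tract were 76.1 in mutant and 13341.9 in WT control heads, and 14184.6 in neuronal rescue and 101.6 in rescue control heads. For 11 gut digestive enzyme genes they were 45.3 in mutant and 7421.4 in WT control heads, and 4982.6 in neuronal rescue and 2061.6 in rescue control heads. For 3 flight muscle genes (fln, Act88F and TpnC4) they were 106.4 in mutant and 6325.5 in WT control heads, and 1553.8 in neuronal rescue and 13719.3 in rescue control heads. The 3 yolk protein genes, which are known for expression in females, summed to 8300.2 in mutant and 6300.4 in WT control heads, and 7792.4 in neuronal rescue and 165.4 in rescue control heads, so 3 arrays go against the male label on this measure, and the order is not that of the testis markers. The 3′ to 5′ ratio of eIF-4a, a measure of RNA integrity, was 3.12 in mutant and 4.03 in WT control heads, and 4.19 in neuronal rescue and 3.44 in rescue control heads. That of GAPDH was 1.57 in mutant and 2.02 in WT control heads, and 1.90 in neuronal rescue and 1.52 in rescue control heads. An actin control gave 2.25 in mutant and 1.78 in WT control heads, and 1.99 in neuronal rescue and 1.88 in rescue control heads. For the mutant and WT control its direction was opposite to that of eIF-4a and GAPDH. Act5C followed eIF-4a and GAPDH there, with 2.68 in mutant and 3.86 in WT control heads. It did not follow them on the other arrays, with 3.70 in neuronal rescue and 3.77 in rescue control heads. The part of RNA integrity in the values was not tested. Added control transcripts also differed between arrays, over 12 probe sets for Bacillus RNA. Their geometric mean signal was 76.8 in mutant and 77.3 in WT control heads, and 261 in neuronal rescue and 351 in rescue control heads. Any value that sets the mutant or WT control against the neuronal rescue or rescue control crosses this difference. Tissue is a mixture here, and fewer cells of a type cannot be told apart from less RNA per cell.

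The paralogues split the arrays. All 22 had lower signals on both the mutant and the rescue control array than on either of the other arrays, though for COX7AL2 the neuronal rescue and rescue control were nearly equal. That order held for 3 of 52 standard subunits and for 28.1% of the 10173 genes above the floor on at least 1 array (13.4% of those above it on every array). Testis, accessory gland and gut markers took the same order in their sums. By medians the gut markers did not, at 45.4 in neuronal rescue and 51.5 in rescue control heads. The part of these tissues in the paralogue values was not tested. Apart from COX7AL2, no paralogue was above the floor in the mutant and 2 of 21 were in the rescue control, while it was passed by 20 of 21 with WT control RNA and by 21 with neuronal rescue RNA.

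**Figure D1:**
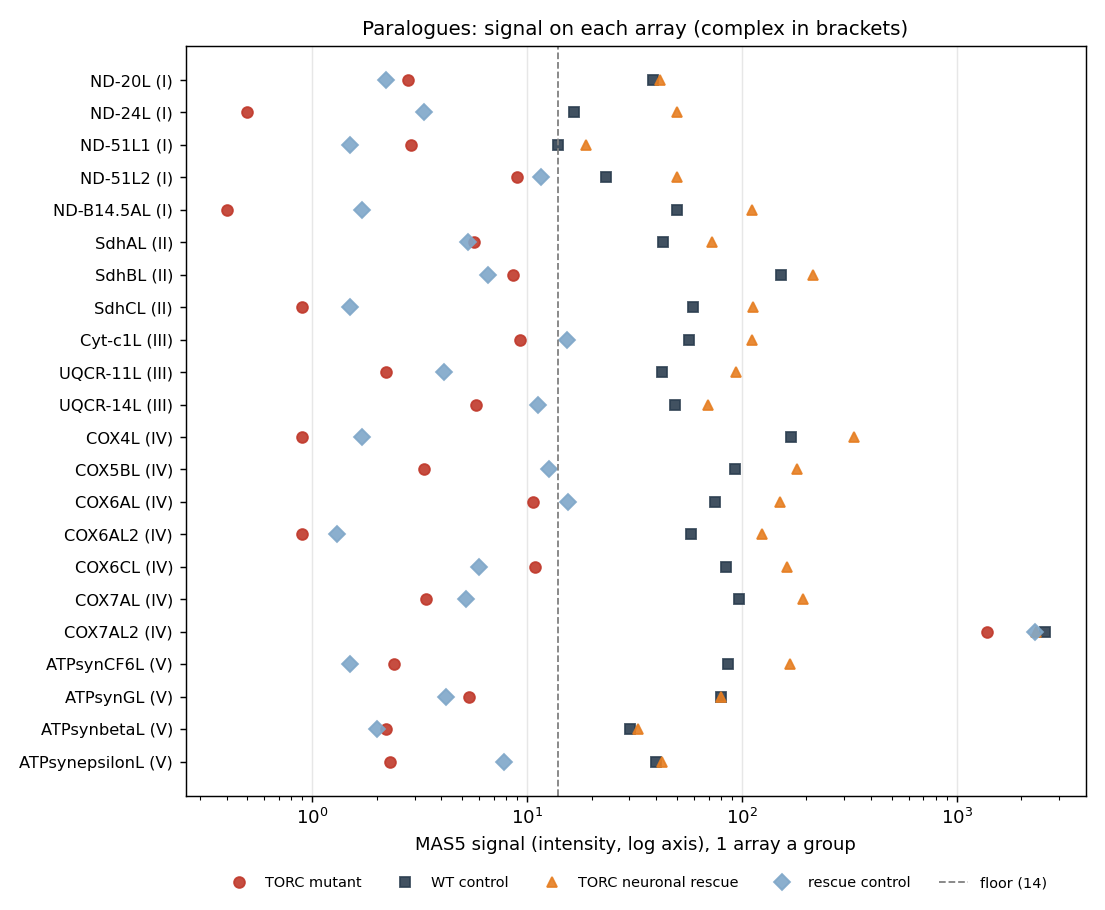
MAS5 signal (intensity, log axis) of each of the 22 paralogues on each of the 4 arrays, with the complex in brackets and the floor of 14 as a dashed line. The mutant and rescue control points lie left of or near the floor for 21 genes, the WT control and neuronal rescue points lie at or right of it, and COX7AL2 stands apart at signals from 1387 to 2567.

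Paralogues of complex IV, cytochrome c oxidase, were the most numerous. COX4L, a copy of the nuclear-encoded subunit COX4, had a signal of 0.9 in mutant and 169.6 in WT control heads, and 331.4 in neuronal rescue and 1.7 in rescue control heads. The mutant signal was at least 12.1-fold below that of the WT control, and the neuronal rescue signal at least 23.7-fold above that of the rescue control. These were the largest bounds in each comparison among the 22 paralogues. COX7AL had 3.4 in mutant and 97.2 in WT control heads, and 192.5 in neuronal rescue and 5.2 in rescue control heads. COX5BL had 3.3 in mutant and 92.5 in WT control heads, and 179.8 in neuronal rescue and 12.7 in rescue control heads. Both were below the floor on the same arrays as COX4L. COX6CL, whose standard counterpart is cype, had 10.9 in mutant and 84.4 in WT control heads, and 162.1 in neuronal rescue and 6.0 in rescue control heads. The counterpart of COX6AL and COX6AL2 is levy. COX6AL had 10.7 in mutant and 74.7 in WT control heads, and 151.3 in neuronal rescue and 15.5 in rescue control heads, so that it stayed just above the floor in the rescue control and its 9.76-fold difference there was measured on both sides. COX6AL2 had 0.9 in mutant and 58.3 in WT control heads, and 124.0 in neuronal rescue and 1.3 in rescue control heads.

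COX7AL2 was the exception among the paralogues. Its signals were 1387.0 in mutant and 2566.7 in WT control heads, and 2333.5 in neuronal rescue and 2307.9 in rescue control heads, all far above the floor. The log2 ratio was -0.89 for the mutant over the WT control and 0.02 for the neuronal rescue over the rescue control, and neither reached 2-fold. Only the mutant array was set apart for this gene. The L in its symbol is therefore not matched by the array pattern of the other 21 copies, and it is described here by its symbol alone. COX7AL2 has 1 probe set, of the _s_at type, and which transcripts that set detects is not given in the sources used here.

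Copies of complex II, succinate dehydrogenase, followed. SdhBL, a copy of the iron-sulfur subunit, had 8.6 in mutant and 152.0 in WT control heads, and 214.7 in neuronal rescue and 6.6 in rescue control heads. Its mutant signal was at least 10.9-fold below the WT control and its neuronal rescue signal at least 15.3-fold above the rescue control. SdhCL, a copy of a membrane anchor, had 0.9 in mutant and 59.4 in WT control heads, and 112.6 in neuronal rescue and 1.5 in rescue control heads. SdhAL, a copy of the flavoprotein subunit, had 5.7 in mutant and 43.1 in WT control heads, and 72.5 in neuronal rescue and 5.3 in rescue control heads. All 3 passed 2-fold in each comparison.

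In complex III, Cyt-c1L, a copy of the haem protein cytochrome c1, had 9.3 in mutant and 56.7 in WT control heads, and 111.5 in neuronal rescue and 15.3 in rescue control heads. Its 7.29-fold difference between the neuronal rescue and the rescue control was measured on both sides. UQCR-14L had 5.8 in mutant and 48.7 in WT control heads, and 69.3 in neuronal rescue and 11.2 in rescue control heads. UQCR-11L had 2.2 in mutant and 42.5 in WT control heads, and 93.7 in neuronal rescue and 4.1 in rescue control heads. Each of these copies passed 2-fold in each comparison as well.

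The 4 copies of complex V, the ATP synthase, were at least 2-fold lower in the mutant and at least 2-fold higher in the neuronal rescue. ATPsynCF6L, a copy of coupling factor 6 of the peripheral stalk, had 2.4 in mutant and 86.1 in WT control heads, and 166.9 in neuronal rescue and 1.5 in rescue control heads. ATPsynGL had 5.4 in mutant and 80.0 in WT control heads, and 79.6 in neuronal rescue and 4.2 in rescue control heads. The other two were closer to the floor. ATPsynepsilonL, a copy of a central stalk subunit, had 2.3 in mutant and 39.9 in WT control heads, and 42.7 in neuronal rescue and 7.8 in rescue control heads. ATPsynbetaL, a copy of the catalytic subunit, had 2.2 in mutant and 30.2 in WT control heads, and 32.9 in neuronal rescue and 2.0 in rescue control heads. With quantile normalization the log2 ratios of ATPsynbetaL were -0.71 and 0.82 for the mutant and neuronal rescue comparisons, short of 2-fold.

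Copies of complex I, the NADH dehydrogenase, included the 3 paralogues that missed the mutant call for a WT control signal near or at the floor. ND-B14.5AL had 0.4 in mutant and 49.7 in WT control heads, and 111.6 in neuronal rescue and 1.7 in rescue control heads. ND-20L, a copy of an iron-sulfur subunit, had 2.8 in mutant and 38.5 in WT control heads, and 41.6 in neuronal rescue and 2.2 in rescue control heads. These were the 2 members of the group called in both comparisons. ND-51L2 had 9.0 in mutant and 23.3 in WT control heads, and 50.2 in neuronal rescue and 11.6 in rescue control heads. ND-24L had 0.5 in mutant and 16.5 in WT control heads, and 50.2 in neuronal rescue and 3.3 in rescue control heads. For both of these the WT control signal was too near the floor for a 2-fold call in the mutant, while the neuronal rescue was at least 3.59-fold above the rescue control. ND-51L1, a copy of the NADH-binding flavoprotein like ND-51L2, had 2.9 in mutant and 14 in WT control heads, and 18.8 in neuronal rescue and 1.5 in rescue control heads, and was called in neither comparison. With the floor at 7 it was called in both, with a log2 ratio of 1.43 for the neuronal rescue.

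In all, the mutant over WT control ratio was at least 2-fold lower for 18 of 22 paralogues and higher for none, where 11.5% of all 11981 genes were lower and 1.74% higher. The bounds ran from 2.16-fold for ATPsynbetaL to 12.1-fold for COX4L, and the median log2 ratio, which is itself limited by the floor, was -1.92 against 0.00 over all genes. In the neuronal rescue 20 of 22 were at least 2-fold higher than in the rescue control and none was lower, where 12.8% of all genes were higher and 1.5% lower. The median log2 ratio was 2.80 against 0.00 over all genes. These comparisons share no array. The rescue control was also set against the WT control, which it shares with the mutant comparison, and there 18 paralogues were lower and none higher, against a background of 11.1% of all genes lower and 2.3% higher. No paralogue was called between the mutant and the rescue control, where 0.81% of all genes were higher and 1.83% lower in the mutant, since 19 of the 22 lay at the floor on both arrays.

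Most standard counterparts of these copies differed little between arrays. A counterpart was measured for 19 paralogues, and these counterparts are 16 genes, because levy, COX7A and ND-51 serve more than 1 copy. Among genes above the floor on every array, 2.47% were higher and 3.1% lower in the mutant. In the neuronal rescue 1.91% of them were higher and 1.83% lower, so few calls among 16 genes do not set the counterparts apart. In 15 of the 16, neither comparison reached 2-fold on the brightest probe set. Their log2 ratios ran from -0.41 to 0.22 for the mutant over the WT control. For the neuronal rescue over the rescue control they ran from -0.40 to 0.10. levy alone of the 16 held the array order of the copies, with 4760.8 in mutant and 5275.3 in WT control heads, and 5482.3 in neuronal rescue and 5120.7 in rescue control heads. COX4, for example, had 5760.2 in mutant and 6388.3 in WT control heads, and 6222.4 in neuronal rescue and 6475.9 in rescue control heads. The exception was sun, which encodes the epsilon subunit that ATPsynepsilonL copies. It had 16.1 in mutant and 66.0 in WT control heads, and 27.0 in neuronal rescue and 48.3 in rescue control heads, a 4.10-fold lower signal in the mutant and no call in the neuronal rescue. On the array order sun and its copy differ, because the rescue control is above the neuronal rescue for sun.

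The WT control and the neuronal rescue are the arrays on which the copies were measurable, so their ratio is free of the floor for 21 paralogues. Its median log2 value was 0.95, where the 9215 genes above the floor on both arrays had a median of 0.01. The ratio reached 2-fold in 6 of the 22, where 5.27% of all genes were higher and 2.76% lower. In 12 of the 21 the log2 ratio lay between 0.92 and 1.17, near 2-fold. These limits, and those of the other ranges below, were set after the values were seen. The 12 were COX4L (0.97), COX5BL (0.96), COX6AL (1.02), COX6AL2 (1.09), COX6CL (0.94), COX7AL (0.99), Cyt-c1L (0.98), ATPsynCF6L (0.95), UQCR-11L (1.14), SdhCL (0.92), ND-51L2 (1.11) and ND-B14.5AL (1.17). Another 5 lay within 0.2 of 0, namely ATPsynGL (-0.01), ATPsynbetaL (0.12), ATPsynepsilonL (0.10), ND-20L (0.11) and COX7AL2 (-0.14). SdhAL (0.75), SdhBL (0.50) and UQCR-14L (0.51) fell between, and ND-24L stood above at 1.61. By complex, all COX copies but COX7AL2 were in the range near 2-fold, while 3 of 4 ATP synthase copies were near equal on the arrays.

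**Figure D2:**
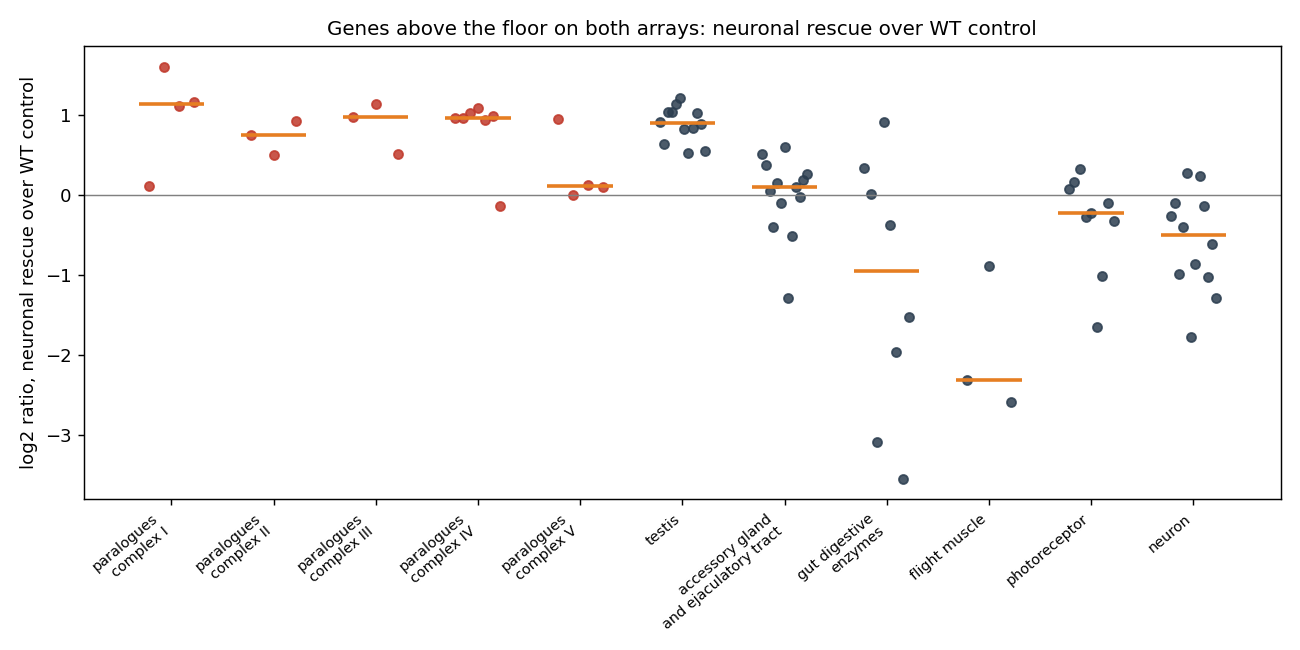
Log2 ratio of the neuronal rescue over the WT control for paralogues by complex and for marker genes by tissue, each point a gene above the floor on both arrays and each bar the median of its column. The COX copies sit near 1 except COX7AL2 at -0.14, and 3 of the 4 complex V copies sit near 0.

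The same ratio was taken over marker genes. How many of all genes fall within each list's range was not counted, and the lists differ in gene number and width of range. The counts of paralogues within a range therefore have no background share and assign no tissue. Over 12 testis markers the same log2 ratio ran from 0.53 to 1.21 with a median of 0.90, and 13 of the 21 paralogues lay within that range. Over 3 fat body genes it ran from 0.53 to 2.27 with a median of 0.73, and 14 paralogues lay within. Accessory gland and ejaculatory tract genes ran from -1.29 to 0.60 with a median of 0.10, and 7 paralogues lay within. For gut enzymes the range was -3.55 to 0.91 with a median of -0.96 and 8 paralogues within, and for flight muscle -2.59 to -0.89 with no paralogue within. The ratio crosses the difference in added control transcripts given above, with a geometric mean of 77.3 in WT control and 261 in neuronal rescue heads. Which tissue each copy's signal came from was not tested.

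The standard subunits were measured well above the floor with few exceptions, and 51 of 52 passed it on all 4 arrays. On the brightest probe set of each gene, none was 2-fold higher in either comparison. Over genes above the floor on every array, 2.47% were higher and 3.1% lower in the mutant. The exception to the floor was also the only 2-fold call, ND-B8, an accessory subunit of complex I. Its signals were 0.7 in mutant and 51.5 in WT control heads, and 76.0 in neuronal rescue and 48.4 in rescue control heads. The mutant was at least 3.68-fold below the WT control, and at least 3.46-fold below the rescue control, where 1.83% of all genes were lower, so only the mutant array lacked it. ND-B8 is 1 of the 3 standard subunits that hold the array order of the paralogues, with ND-15 and ND-B14, but its rescue control signal was close to that of the WT control. With a floor of 28 the log2 ratio to the WT control was -0.88 and the call was lost, and no other probe set measured this gene.

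Among the other 51 standard subunits the mutant array was the lowest of the 4 for 32. Over the 7480 genes above the floor on all 4 arrays the mutant was lowest for 20.6%. By complex the counts were 17 of 26 for complex I, 3 of 3 for complex II, 1 of 5 for complex III, 4 of 7 for complex IV and 7 of 10 for complex V. The rescue control was the highest array for 34 of the 51, against 28.1% of all those genes, among them 9 of 10 subunits of complex V and 4 of 5 of complex III. That last count depended on the scaling, since it was 16 with quantile normalization, 20 with median centring and 2 with centring on head genes, whereas the count lowest in the mutant stayed between 32 and 38 under those settings. Flight muscle genes, which belong to a tissue rich in mitochondria, were also lowest in the mutant and highest in the rescue control by their sums, and their part in these counts was not tested. The sums of 9 further muscle genes were 16430.7 in mutant and 27681.3 in WT control heads, and 18252.6 in neuronal rescue and 24679.7 in rescue control heads. The mutant was thus lowest there too, but the WT control was highest. The 4 fat body genes had another order, with sums of 14464.5 in mutant and 3446.8 in WT control heads, and 9323.2 in neuronal rescue and 13855.9 in rescue control heads.

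**Figure D3:**
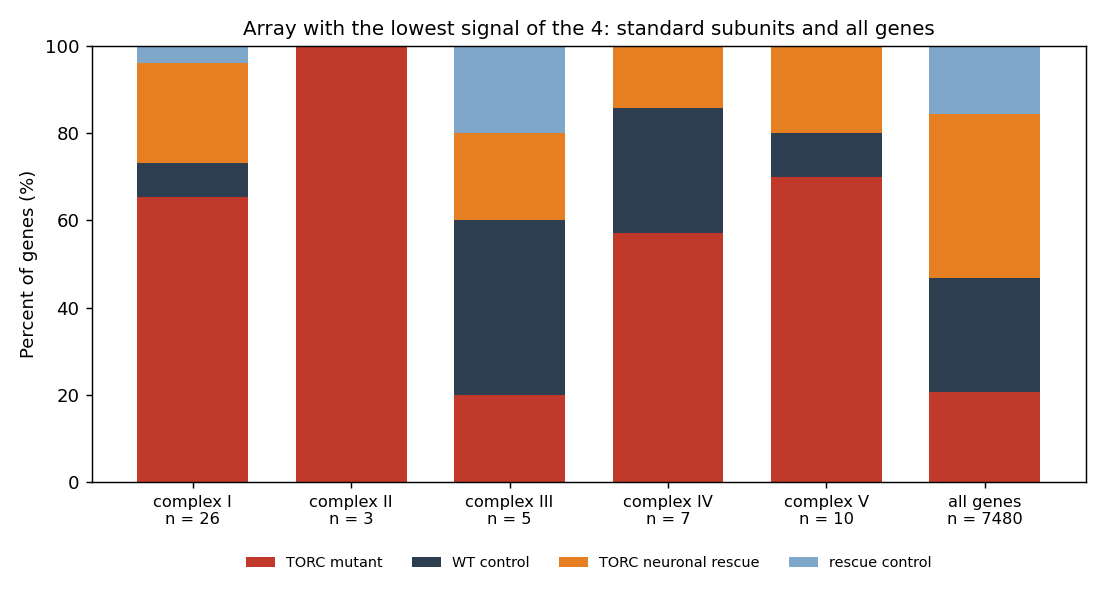
Share of standard subunits (percent, by complex, genes above the floor on all 4 arrays) for which each array had the lowest signal of the 4, beside all 7480 genes. The mutant segment is 65.4% for complex I and 70.0% for complex V, against 20.6% for all genes.

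For the mutant over the WT control, the 51 standard subunits had a median log2 ratio of -0.13, while the median of all 7480 such genes was 0.07. The ratio was below 0 for 39 of the 51, against 42.3% of those genes, and the median stayed below 0 under each scaling tried. Complex I had a median of -0.21 over 26 subunits with 22 below 0, and the subunits of complexes II to V had a median of -0.055. With quantile normalization these medians were -0.28 and -0.18, and with median centring -0.27 and -0.12, so the gap between them was narrower with quantile normalization. These sizes are small beside the gap between probe sets of 1 gene. Where 2 such probe sets passed the floor, their log2 ratios for the mutant differed by 0.32 at the median and by 0.92 at the 90th percentile over 414 genes.

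**Figure D4:**
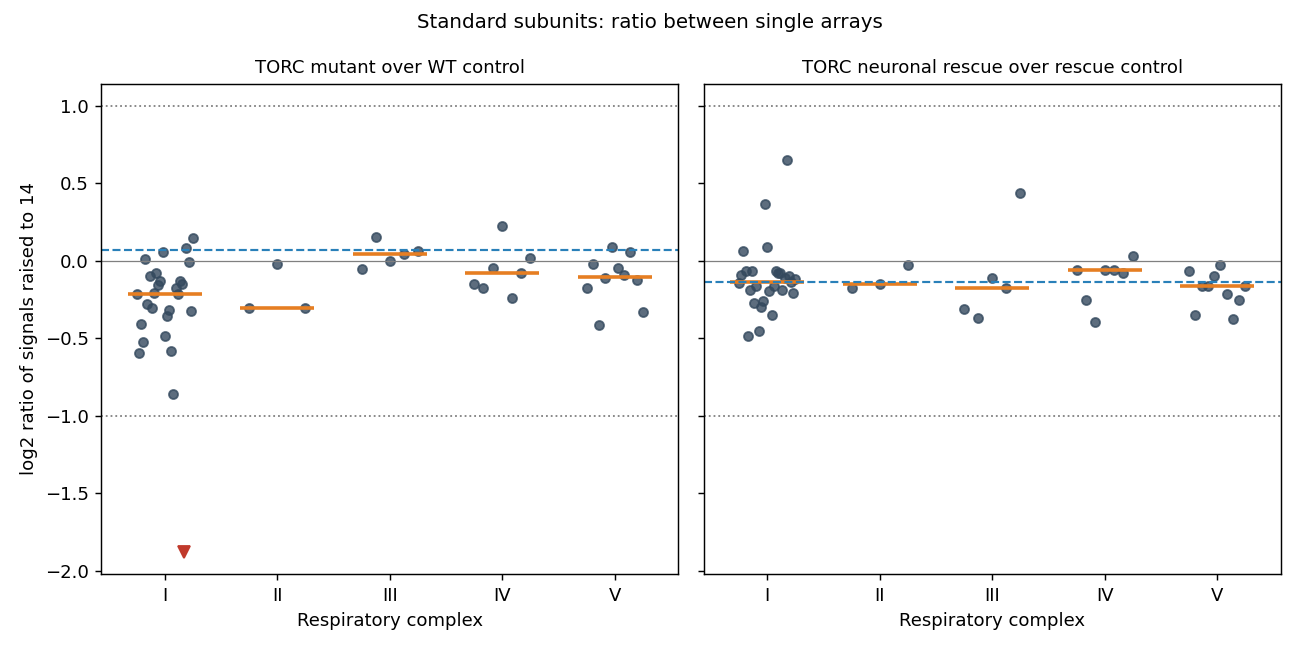
Log2 ratio of each standard subunit by complex, for the mutant over the WT control and for the neuronal rescue over the rescue control; orange bars are medians by complex, the blue dashed line is the median of the 7480 genes, dotted lines mark 2-fold and the red triangle is ND-B8, a bound. On the left most complex I points lie below the blue line, and on the right the complexes lie around it.

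The complex I subunits with the lowest ratios were accessory subunits. ND-B16.6 had 1035.7 in mutant and 1882.7 in WT control heads, and 1741.8 in neuronal rescue and 1825.6 in rescue control heads. The mutant was 1.82-fold below the WT control, and the other 3 arrays lay close together. ND-13B had 590.3 in mutant and 891.9 in WT control heads, and 673.6 in neuronal rescue and 717.4 in rescue control heads, a 1.51-fold lower signal in the mutant. ND-B14.7 had 1609.9 in mutant and 2408.0 in WT control heads, and 2168.0 in neuronal rescue and 2428.5 in rescue control heads. The mutant was again lowest for both. At the other end, ND-SGDH had 2461.6 in mutant and 2223.2 in WT control heads, and 2470.6 in neuronal rescue and 2682.2 in rescue control heads, with the highest log2 ratio of complex I at 0.15. The core subunits ND-75, ND-51 and ND-20, which carry electrons from NADH, had log2 ratios of -0.08, -0.21 and -0.28. The median of complex I was -0.21, so these 3 lay on both sides of it or at it.

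Complex II subunits were lower in the mutant by small amounts. SdhD, a membrane anchor, had 1405.6 in mutant and 1739.1 in WT control heads, and 1584.6 in neuronal rescue and 1612.3 in rescue control heads, for a log2 ratio of -0.31. SdhB had 1579.2 in mutant and 1950.4 in WT control heads, and 1964.6 in neuronal rescue and 2218.2 in rescue control heads, at -0.30, while SdhC had -0.02. Complex III passes electrons to cytochrome c, and 4 of its 5 standard subunits under the symbol rule had ratios above 0. The ratios ran from -0.06 for Cyt-c1 to 0.15 for UQCR-11, with UQCR-14 at 0.00014. The complex III genes RFeSP and ox, which the symbol rule leaves out, had -0.52 and -0.54. Cyt-c1 had 4675.5 in mutant and 4857.3 in WT control heads, and 4752.2 in neuronal rescue and 5891.4 in rescue control heads, so the rescue control was the array that stood out. UQCR-11 was near the floor, with 18.0 in mutant and 16.2 in WT control heads, and 18.7 in neuronal rescue and 24.1 in rescue control heads.

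In complex IV the log2 ratios for the mutant ran from -0.24 for COX7B to 0.22 for COX7A. COX7A had 4229.1 in mutant and 3622.7 in WT control heads, and 3629.6 in neuronal rescue and 3779.0 in rescue control heads, and it was the 1 standard subunit of 51 for which the mutant was the highest array, against 33% of all genes. COX7B had 3340.1 in mutant and 3938.2 in WT control heads, and 4457.4 in neuronal rescue and 4635.8 in rescue control heads. In complex V the lowest ratio was that of ATPsynCF6, at -0.41, with 3136.8 in mutant and 4181.9 in WT control heads, and 3918.5 in neuronal rescue and 4375.7 in rescue control heads. ATPsyngamma, the rotor shaft, was next at -0.33. The catalytic subunit gene ATPsynbeta had 8105.4 in mutant and 7786.6 in WT control heads, and 6956.7 in neuronal rescue and 9039.7 in rescue control heads, with a ratio of 0.06, and ATPsynE had the highest at 0.09.

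For the neuronal rescue over the rescue control no standard subunit reached 2-fold in either direction on its brightest probe set. Of the 7480 genes, 1.91% were higher and 1.83% lower. The median log2 ratio of the 51 was -0.15, close to the -0.14 of all those genes, and turned to 0.30 when arrays were centred on head genes. It was below 0 for 46 of 51, against 65.2% of all. The complexes had similar medians, from -0.17 for complex III to -0.06 for complex IV. ND-19, an accessory subunit, was the lowest of complex I at -0.48, with 1346.8 in the neuronal rescue and 1883.9 in the rescue control. ND-B8 was the highest at 0.65 and ND-B12 the next of complex I at 0.36, with 64.9 in the neuronal rescue and 50.4 in the rescue control. UQCR-Q had 647.7 in the neuronal rescue and 477.1 in the rescue control, a log2 ratio of 0.44, and UQCR-11 had -0.37. COX5B had 4013.8 in the neuronal rescue and 5282.3 in the rescue control, at -0.40, and COX8 had the highest ratio of complex IV at 0.03. ATPsynbeta was the lowest of complex V at -0.38 and ATPsynF the highest at -0.03. For SdhB the ratio was -0.18 and for SdhD -0.03, so that all 3 complex II subunits were below 0 by less than the 0.33 that separated the median pair of probe sets in this comparison.

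In 6 standard subunits more than 1 probe set was present, and the brightest stood for the gene. In COX7C another probe set had 6.3 in mutant and 29.7 in WT control heads, and 81.7 in neuronal rescue and 1.7 in rescue control heads, the array order of the paralogues. That set passed 2-fold in both comparisons, at least 2.12-fold lower in the mutant and at least 5.84-fold higher in the neuronal rescue. The brightest probe set of COX7C had 4784.8 in mutant and 5059.5 in WT control heads, and 4901.2 in neuronal rescue and 5166.6 in rescue control heads, which were nearly level. Which transcript the dimmer probe set detects is not given in the sources used here. For ATPsynbeta another probe set had 1038.7 in the neuronal rescue and 2226.5 in the rescue control. Its log2 ratio of -1.10 passed 2-fold, where the brightest had -0.38. One further probe set of COX7B had 3098.9 in the neuronal rescue and 5827.5 in the rescue control, at -0.91 where the brightest had -0.06. ND-ACP, the mitochondrial acyl carrier protein, had -0.16, -0.70 and -0.10 for the mutant comparison on its 3 probe sets. ATPsyngamma had -0.16 and 0.26 for the neuronal rescue on its pair, and ND-B17 had -0.18 and -0.56 for the mutant on its pair, so probe sets of a gene differed by as much as many standard subunits did.

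Subunit genes with other symbols were examined with the same rules. Of 6 measured, namely RFeSP (the Rieske iron-sulfur protein), ox, cype, levy, blw (the ATP synthase alpha subunit) and sun, only sun was called lower in the mutant and none was called in the neuronal rescue, where 11.5% of all genes, and 3.1% of those above the floor on every array, were lower in the mutant. The complex III genes RFeSP and ox had log2 ratios of -0.52 and -0.54 for the mutant over the WT control. RFeSP had 1460.9 in mutant and 2094.9 in WT control heads, and 1783.5 in neuronal rescue and 1818.2 in rescue control heads, so the mutant array was the lowest here too. None of 8 assembly factor genes was called in either comparison. Among genes above the floor on every array, 2.47% were higher and 3.1% lower in the mutant. In the neuronal rescue 1.91% of them were higher and 1.83% lower, so no call among 8 genes does not set this list apart. The lowest log2 ratio of the assembly factors for the mutant was -0.88, for Surf1 of cytochrome c oxidase assembly. The highest was 0.41, for Scox, a copper chaperone of the same complex. In the neuronal rescue the assembly factors ran from -0.53 for Cox10 to 0.26 for Cox17. Of 6 regulators of mitochondrial genes and mitochondrial DNA, none was called. Of all genes, 1.74% were higher and 11.5% lower in the mutant, and 12.8% higher and 1.5% lower in the neuronal rescue. Among these regulators ewg, the fly relative of nuclear respiratory factor, had the highest ratio for the mutant at 0.56. The lowest was that of mtTFB2, a mitochondrial transcription factor, at -0.92.

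The pyruvate dehydrogenase complex and TCA cycle supply the respiratory chain with electrons. Of 15 measured genes of this list, 5 were called lower in the mutant and the same 5 higher in the neuronal rescue, and none went the other way, where 11.5% of all genes were lower in the mutant and 12.8% higher in the neuronal rescue. The 5 were the aconitase gene mAcon2, the succinyl-CoA synthetase gene Scsalpha2 and the fumarase genes Fum2, Fum3 and Fum4. All are numbered family members, but so are genes of the list that were not called, mAcon1 and Scsalpha1 among them. Scsalpha2 had 12.0 in mutant and 86.2 in WT control heads, and 178.5 in neuronal rescue and 9.1 in rescue control heads, while Scsalpha1 had 3034.2 in mutant and 3104.9 in WT control heads, and 3109.6 in neuronal rescue and 3024.6 in rescue control heads. mAcon2 had 0.7 in mutant and 32.8 in WT control heads, and 101.4 in neuronal rescue and 2.9 in rescue control heads. The log2 ratio of the neuronal rescue over the WT control was 1.05 for Scsalpha2, 1.63 for mAcon2, 1.49 for Fum4, 0.82 for Fum3 and -0.19 for Fum2, a spread as wide as that of the subunit copies. Idh, the NADP-dependent isocitrate dehydrogenase, had the highest ratio of the list for the mutant at 0.76, with 5520.3 in the mutant and 3261.1 in the WT control. The lowest ratio in the neuronal rescue was that of Idh3b at -0.61.

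A few membrane carriers were called. Porin2, a copy of the outer membrane channel gene porin, had 12.6 in mutant and 168.3 in WT control heads, and 322.8 in neuronal rescue and 14.3 in rescue control heads. Ant2, an ADP/ATP carrier, had 41.0 in mutant and 144.8 in WT control heads, and 164.7 in neuronal rescue and 31.6 in rescue control heads, so it was above the floor on all 4 arrays and 3.53-fold lower in the mutant. Its neighbour in function sesB, the main ADP/ATP carrier, had 9120.3 in mutant and 9119.2 in WT control heads, and 10651.6 in neuronal rescue and 10852.7 in rescue control heads, nearly level in each pair. The uncoupling protein gene Ucp4C had 1.4 in mutant and 27.0 in WT control heads, and 63.9 in neuronal rescue and 9.1 in rescue control heads, and passed 2-fold only in the neuronal rescue. Of 11 measured carriers, 2 were thus lower in the mutant and 3 higher in the neuronal rescue, and none went the other way. Of all genes, 11.5% were lower in the mutant and 12.8% higher in the neuronal rescue. With 11 genes in the list, the gap to those shares was not tested. The highest ratio for the mutant was that of Bmcp, at 0.65, and the lowest in the neuronal rescue that of the phosphate carrier gene Mpcp1, at -0.72.

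**Figure D5:**
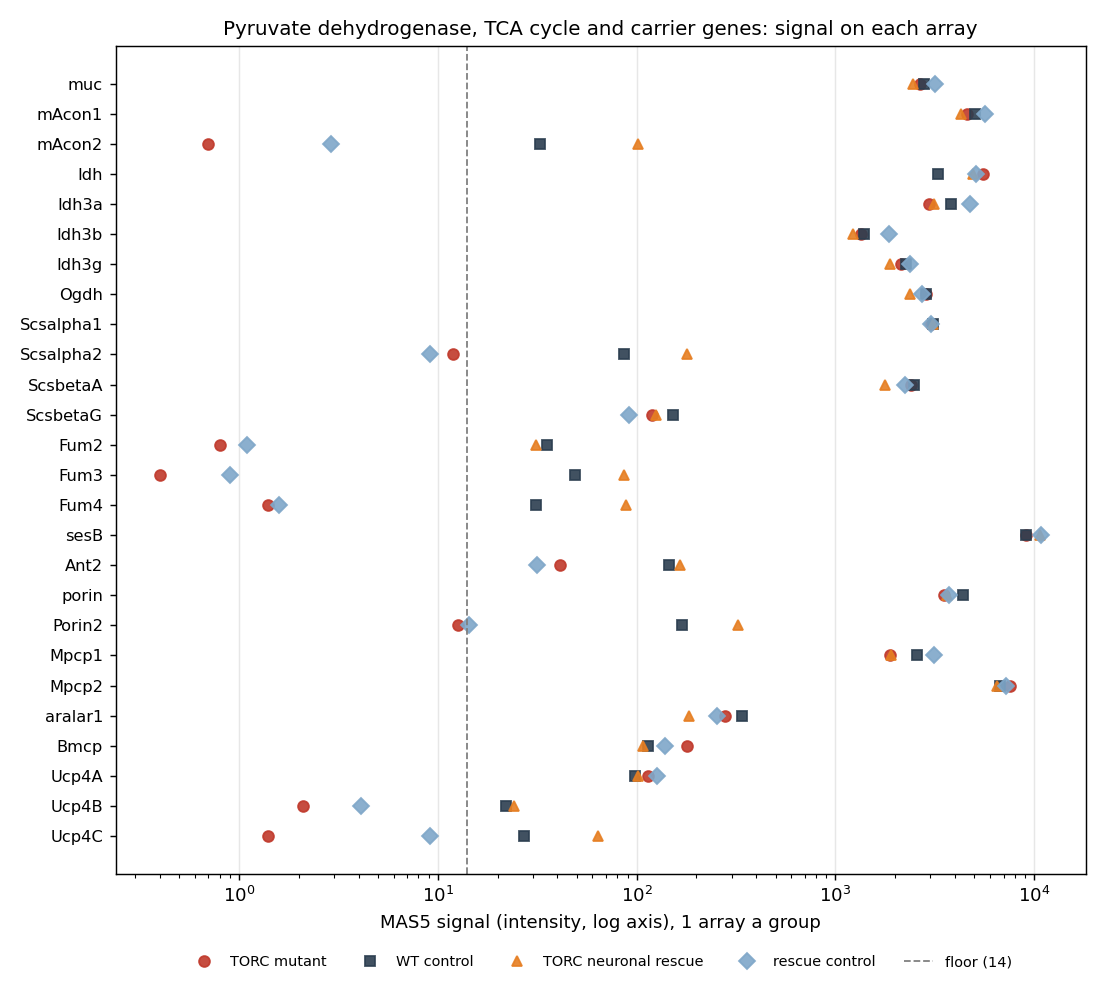
MAS5 signal (intensity, log axis) on each of the 4 arrays for 15 pyruvate dehydrogenase and TCA cycle genes and 11 carrier genes, with the floor of 14 as a dashed line. mAcon2, Scsalpha2, Fum2, Fum3, Fum4, Porin2, Ucp4B and Ucp4C have their mutant and rescue control points near or below the floor and the other two arrays above it.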

How the data were processed

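RNA of 4 head samples was measured, 1 array a group, with groups taken from the sample titles. The deposited intensity values are probe set signals that the authors made with MAS5, per the submitters' processing notes, and their 2% trimmed mean was 150.0 on each array. MAS5's version, the genome build, detection calls and scanner files are not given in the sources used here. Of 18952 probe sets 183 are controls. The platform annotation gave 13646 a single symbol, and the brightest by mean log2 signal stood for each of 11981 genes. The symbol rule matched 82 such probe sets of 74 genes, all found in RefSeq Release 6 by Entrez identifier and symbol, and 4 probe sets shared with another gene were left out. Signals were raised to 14, log2 transformed and compared as ratios, with calls at 2-fold. Calling was tested on simulated data with changes only in genes well above the floor. That test does not bear on calls that involve the floor. Named genes are all paralogues, cytochrome c1, called subunits, members whose probe sets disagree, and the extremes of each complex and of each pathway list. Some further genes are named as examples outside this rule. Members and lists were chosen with earlier results of these data known. A planned motif search and protein comparison had no sequences to use here, and a list of mitochondrially encoded genes had no member measured. Alternatives covered scaling, floor, probe sets and threshold. Python 3.11.15, numpy 2.4.6, pandas 2.3.3, scipy 1.17.1 and matplotlib 3.10.9 were used. The number of arrays limits the precision, and depth has no meaning for them.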

Additional observations from a re-analysis of the deposited data

How the results depend on the processing

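No paired analysis was possible because each group has 1 array. No call changed sign under 10 other settings and 2 more chosen after seeing the data. The 18 paralogues lower in the mutant became 11 with a floor of 28, 2 with a floor of 56 and 0 among genes above 14 on all 4 arrays, where COX7AL2 alone remains. The 20 higher in the neuronal rescue became 9 with a floor of 56 and 0 among genes above 14 on all arrays. The paralogue median log2 ratio for the mutant, -1.92, was -1.67 with quantile normalization, -1.72 centred on head genes, -2.80, -0.95 and -0.038 with floors of 7, 28 and 56, -0.89 for COX7AL2 alone and -2.05 for symbols ending in L with no digit. For the neuronal rescue, 2.80, it was 2.48, 3.23, 3.44, 1.87, 0.87, 0.016 and 2.93 in the same order. A floor bounds each such fold, so these medians move with it by construction. Of standard subunits, 0 were lower in the mutant with floors of 28 and 56 or among genes above 14 on all arrays, and 3 were past 1.5-fold. In the neuronal rescue, 1 was higher centred on head genes (ND-B8, 1.10), 1 with the mean over probe sets (COX7C, 1.23) and 1 at 1.5-fold, and 1 was lower with quantile normalization (UQCR-11, -1.18). Their median there was -0.046 with quantile normalization, -0.040 with median centring and 0.30 centred on head genes, and the median of all genes moved to -0.24, -0.03 and 0.31, so the sign is set by the scaling. Standard subunits highest in the rescue control numbered 16, 20 and 2 under those settings, while those lowest in the mutant numbered 36, 38 and 36 with 15.2%, 25.8% and 29.8% of all genes as background. With 1 array a group, variation between flies or RNA preparations is not measured.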
